A study of Mus musculus with 11 samples.

Results

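ATP-binding cassette (ABC) transporters are membrane pumps that use ATP to move drugs, lipids, bile salts, peptides and metal complexes across membranes. Their levels were read across the cell classes of the mouse brain. The genes were every symbol of subfamilies A to G in the deposited gene list that had the form Abc, a subfamily letter and a number. This gave 50 of 25938 genes. Of these, 44 had at least 100 UMIs (unique molecular identifiers, here counted transcripts) over all nuclei and were placed in a class. The other 6, Abca14, Abca15, Abca16, Abcb11, Abcg5 and Abcg8, had fewer and were not placed.

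Single nuclei were sequenced from the brains of mice whose transferrin receptor (TfR) locus, per the labels, carried the human knock-in on both alleles. The deposited metadata give the strain as C57BL/6J only. All groups were dosed intravenously once a week, 4 times in all, and brains were collected 72 hours after the last dose. The control group received 57 mg/kg of ATV:BACE1, which binds TfR and carries no antisense oligonucleotide (ASO), in 3 libraries. OTV:Malat1, a TfR-binding carrier of an ASO against the nuclear RNA Malat1, was given at 60 mg/kg (3 libraries). The carrier without TfR binding, nonTV:Malat1, titled RSV-ASO, was given at 60 mg/kg (3 libraries), and the free Malat1 ASO at 2.5 mg/kg (2 libraries). Within each group replicate 1 was a female of 2.33 months, replicate 4 a male of 2.57 months and replicate 5 a male of 2.33 months, and the free ASO group had replicates 1 and 5. The deposited batch number follows the replicate number, so batch cannot be told apart from it. Replicates 1 and 5 also differ in sex, 4 and 5 in age, and 1 and 4 in both. Libraries of a group differ in sex or age and so came from different animals, but no label says whether a library came from 1 animal or several. The p-values measure the spread between these libraries.

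In the brain, ABC pumps are best known at the barriers. P-glycoprotein and Abcg2 in the capillary endothelium return many drugs to the blood, and multidrug resistance proteins of the Abcc family do related work in the choroid plexus and the arachnoid. Other family members export cholesterol and phospholipids to apolipoproteins, load fatty acids into peroxisomes, serve mitochondria and lysosomes, or form the regulatory part of potassium channels. A few are soluble ATPases that work on ribosomes and pump nothing.

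The 11 libraries held 7546 to 13840 nuclei and 33235994 to 43972886 UMIs, with a median of 2859 UMIs per nucleus. In all, 1495 of 108788 barcodes occurred in more than 1 library. Malat1 itself stood at 40041 to 50348 UMIs per 1000000 (CPM, counts per 1000000) in the OTV:Malat1 libraries and at 74472 to 83899 in the ATV:BACE1 and nonTV:Malat1 libraries, without overlap. The labels name the brain region as posterior and the deposited metadata name cortex. Cortical markers summed to 262 CPM in neurons and 177 in glia, the next class. Of the thalamic and hindbrain markers, Slc17a6 and Tcf7l2 summed to 105 CPM in neurons and 431 in astrocytes. The remaining marker of that list, Hoxb5, was not among the deposited genes. The cerebellar markers Gabra6 and Pcp2 summed to at most 1.34 CPM in any class. These values do not settle the region. Class names are those the authors predicted. Neurons gave 87.5% of all UMIs and vascular endothelium 0.335%, so a gene can be concentrated in a small class and still have most of its UMIs elsewhere. The defining markers of each vascular, glial and immune class were highest in the class of that name, except that the pericyte markers summed to 6294 CPM in vascular smooth muscle and 5994 CPM in pericytes. Vascular smooth muscle had the least certain names, with a median prediction score of 0.545. The glia class carried both choroid plexus and ependymal markers. The choroid plexus markers, led by Ttr, also summed to 384 to 1801 CPM in the classes outside glia, and the source of these UMIs was not tested.

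Levels below are CPM, the UMIs of a gene per 1000000 UMIs of that class in that library, given as mean ± SD over libraries with at least 20 nuclei of the class. They compare a gene between classes and not 1 gene with another, because no transcript lengths enter. Because the class names came from expression in the same nuclei, differences between classes are descriptions without a test. Perivascular macrophages reached 20 nuclei in 1 library and were set aside, a choice made after the data were seen. Over the 9 remaining classes, microglia were the highest class of 9 ABC genes, vascular endothelium of 8, oligodendrocytes of 8, neurons of 7, astrocytes of 3, glia of 3, vascular smooth muscle of 3, pericytes of 2 and leptomeningeal cells of 1. With the 1 library of perivascular macrophages left in, that class became the highest of 10 genes and microglia of 3. Over the 9 classes, 8 of the 44 placed genes kept the same highest class in every library with enough nuclei of it. Some placements rest on few UMIs. Abca7 had 35 UMIs in endothelium, its highest class in 3 of 11 libraries, and Abcc10 had 10 in vascular smooth muscle. Few genes stood far above the next class, although many stood far above neurons. In their highest class 15 of the 44 placed genes were under 2 times the neuronal level, among them the 7 highest in neurons. Abcb1a was 289 and Abcc9 854 times the neuronal level. Only 4 genes, Abcb1b, Abcb4, Abcc3 and Abcb5, were at least 3 times higher in their highest class than in the next. Of these, Abcb5 was near the floor, at 1.97 ± 0.359 CPM in neurons and 0.647 ± 2.15 in microglia. The libraries of the highest and the next class did not overlap for 3 genes, Abca9, Abcb4 and Abcc3. The share of all genes that meet either mark, or that are highest in each class, was not computed. None of these counts can thus be read as a trait of ABC genes.

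**Figure D1:**
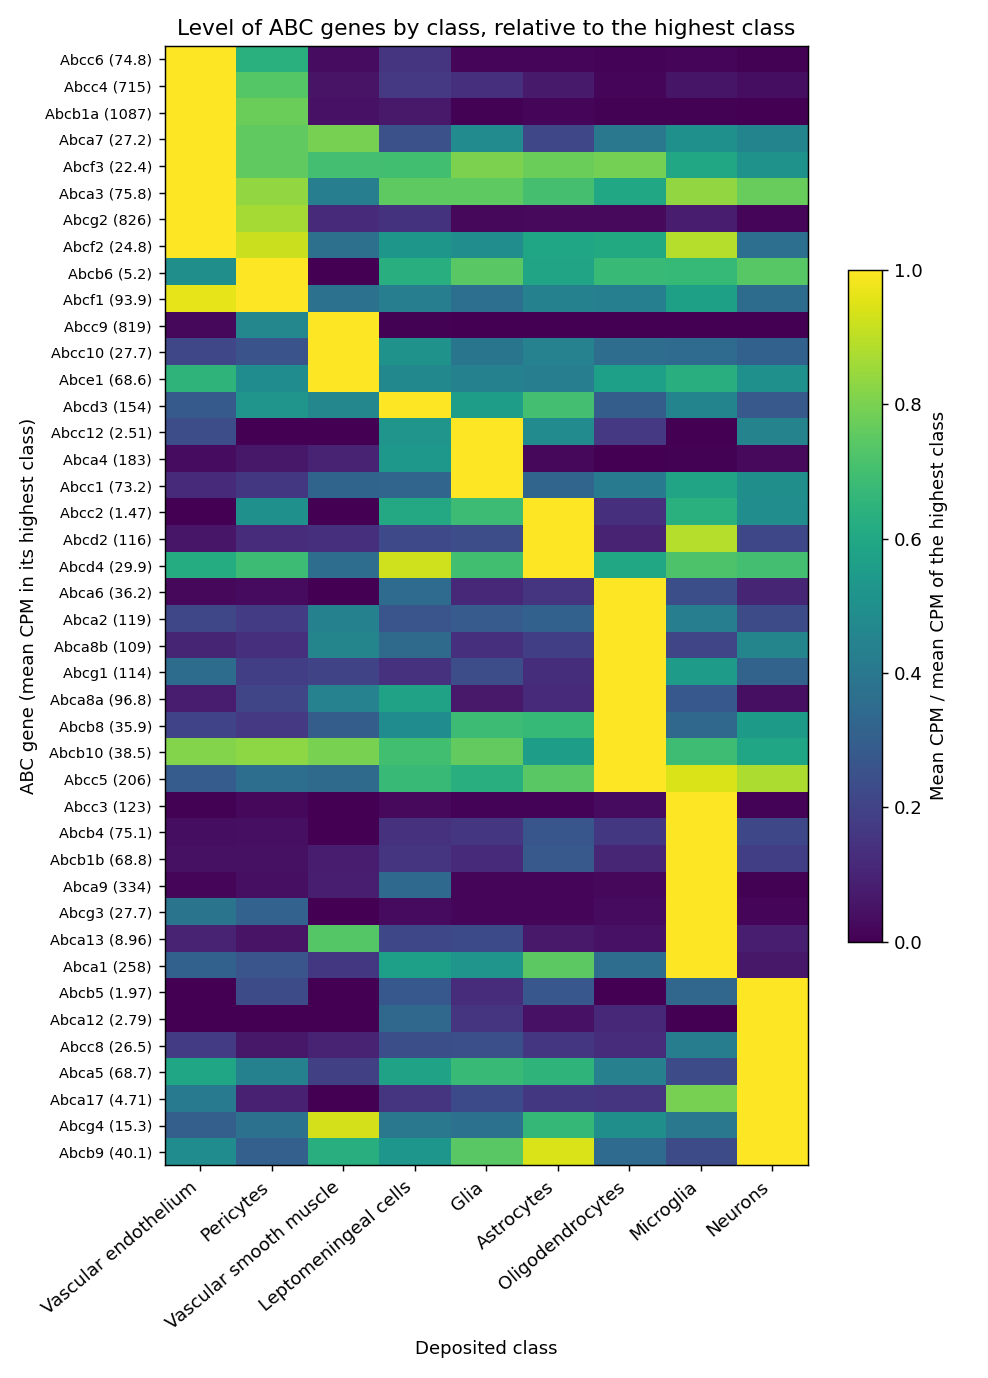
Mean CPM of the ABC genes described here (rows, with the CPM of the highest class in brackets) in 9 deposited classes (columns), each divided by the gene's highest class. Genes are grouped by highest class; Abcc3, Abca9 and Abcc9 have a single bright block or pair, whereas Abcc5, Abcb10 and Abcf3 are spread over nearly all classes.

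Of the efflux pumps of drugs and conjugates, 4 of 11 were highest in vascular endothelium. Abcb1a, which encodes P-glycoprotein, had 856 to 1398 CPM in the endothelium of the 11 libraries, with a median of 1010 and a mean of 1087 ± 190. It was 842 ± 118 in pericytes, 72.3 ± 42.7 in leptomeningeal cells, 54.5 ± 64.1 in vascular smooth muscle (8 libraries) and 3.76 ± 0.447 in neurons. Endothelium was above pericytes in each of the 11 libraries, although the ranges over libraries overlapped. By control library, endothelial Abcb1a was 856, 1398 and 917 CPM in ATV:BACE1 replicates 1, 4 and 5.

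Abcg2, the breast cancer resistance protein, ranged from 535 to 1308 CPM in endothelium (826 ± 226). Pericytes followed at 715 ± 138, and endothelium was the higher of the classes in 9 of 11 libraries. Leptomeningeal cells had 122 ± 39.2, microglia 65.8 ± 31.6 and neurons 11.7 ± 0.94 CPM. Abcc4, a pump of cyclic nucleotides and drug conjugates, was 715 ± 144 CPM in endothelium and 527 ± 109 in pericytes. It also had 119 ± 44.1 CPM in leptomeningeal cells and 100 ± 15.8 in glia, which do not differ beyond their spread. Abcc6, whose loss causes calcification of elastic tissue, was 74.8 ± 29.8 CPM in endothelium, 47.6 ± 21.6 in pericytes and 0.576 in neurons. Abcc1, a pump of glutathione and glucuronide conjugates, went the other way, with 8.73 ± 6.68 CPM in endothelium and its highest level, 73.2 ± 14.5, in glia. In the deposited classes Abcb1a, Abcg2, Abcc4 and Abcc6 were thus highest in endothelium with nuclei named pericytes next, and Abcc1 had its lowest level of the 9 classes in endothelium.

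**Figure D2:**
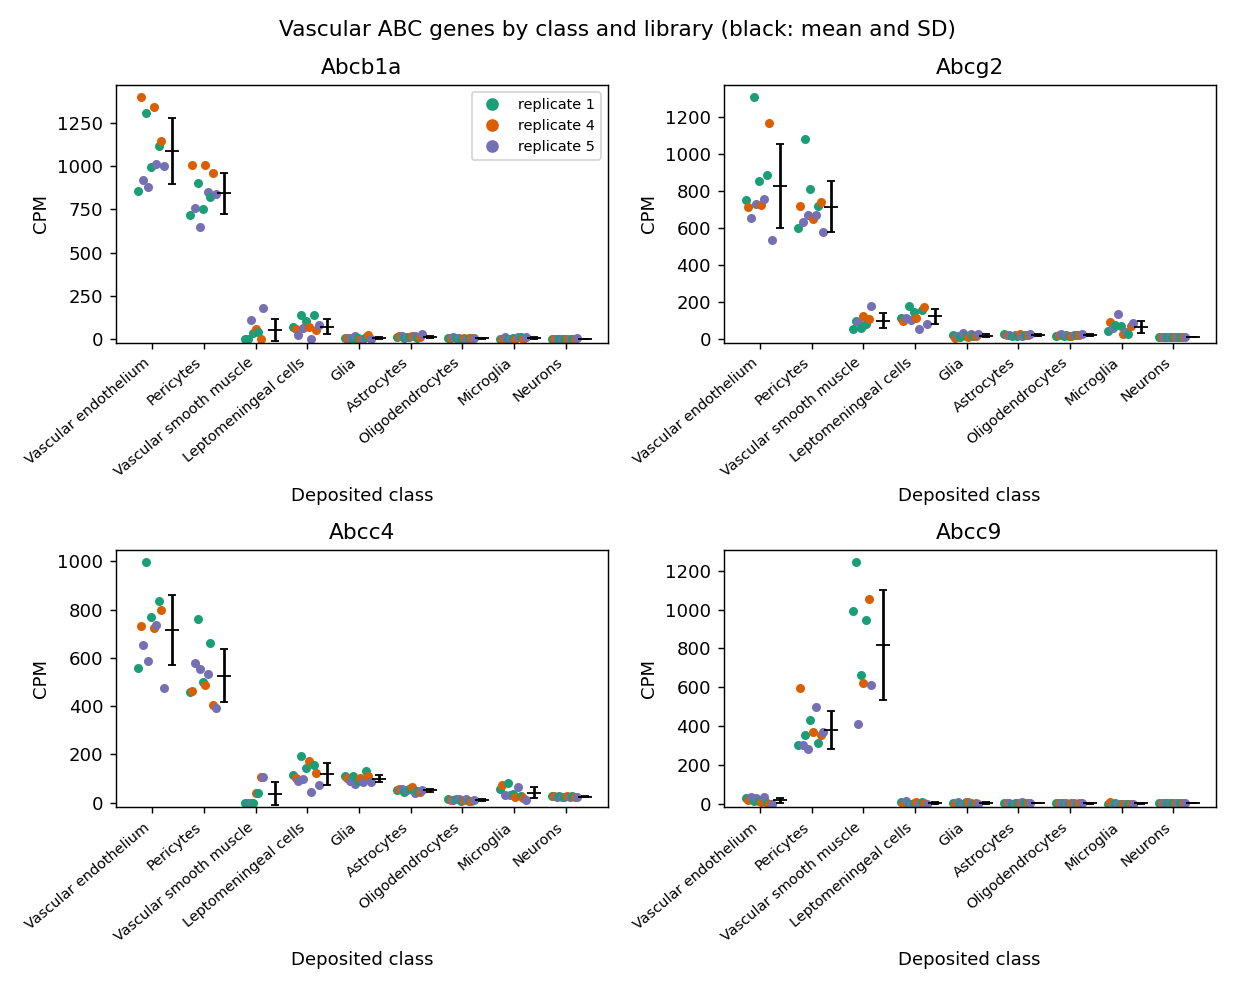
CPM of Abcb1a, Abcg2, Abcc4 and Abcc9 (y axes, linear) in each library, by deposited class (x axes); points are libraries coloured by replicate number and black bars are mean and SD. Abcb1a, Abcg2 and Abcc4 are high in endothelium and in nuclei named pericytes, and Abcc9 is high in vascular smooth muscle (819) and pericytes (379) and low in endothelium (16.3).

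Nuclei named pericytes carried endothelial RNA. The pericyte level of the endothelial markers Cldn5, Flt1, Pecam1, Ly6c1 and Mecom was 0.889, 0.765, 0.779, 0.881 and 0.699 of the endothelial level. The same ratio was 0.775 for Abcb1a, 0.866 for Abcg2, 0.737 for Abcc4 and 0.636 for Abcc6. Of the 930 nuclei named pericytes, 824 had at least 1 UMI of these markers. In those 824, Abcb1a stood at 864 CPM, Abcg2 at 751 and Abcc4 at 568 with all libraries summed. In the other 106 nuclei Abcb1a had 0 UMIs of 75851, and the 95% Poisson interval reached up to 48.6 CPM. Abcg2 there was 79.1 CPM (29 to 172) and Abcc4 52.7 (14.4 to 135), whereas Abcc9 was 422 (289 to 596) against 358 (333 to 384) in nuclei with endothelial UMIs. The nuclei without endothelial UMIs were shallower, with a median of 669 UMIs against 2147, and selecting on absent UMIs favours shallow nuclei. In vascular smooth muscle the pattern was alike: 213 nuclei without endothelial marker UMIs had 0 UMIs of Abcb1a (up to 18.4 CPM) and 954 CPM of Abcc9 (824 to 1100). Poisson intervals cover counting error only.

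Abcc9 encodes the sulfonylurea receptor SUR2, which joins the pore subunit Kcnj8 in the ATP-sensitive potassium channel of vessel walls. It ranged from 412 to 1247 CPM in the 8 libraries with enough vascular smooth muscle nuclei (819 ± 283). Pericytes had 379 ± 96.5, endothelium 16.3 ± 12.4 and neurons 0.959 ± 0.224 CPM. Kcnj8 had the same order, with 178 CPM in vascular smooth muscle, 154 in pericytes and 7.12 in endothelium. Vascular smooth muscle was above pericytes for Abcc9 in each of those 8 libraries, with overlapping ranges. With nuclei of a prediction score of at least 0.8 no library kept 20 nuclei named smooth muscle, and pericytes became the highest class of Abcc9. Smooth muscle markers summed to 1344 CPM in nuclei named smooth muscle and to 158 in pericytes. Pericyte markers summed to 6294 CPM in nuclei named smooth muscle and to 5994 in pericytes. Pdgfrb, Atp13a5 and Kcnj8 were higher in nuclei named smooth muscle, and Vtn and Rgs5 in pericytes. Which of these cell types the Abcc9 RNA of either class came from was not tested. The other sulfonylurea receptor, Abcc8 (SUR1), was highest in neurons at 26.5 ± 2.37 CPM and in 9 of 11 libraries was higher there than in any other class. Its pore partner Kcnj11 was low everywhere, with 7.16 CPM in microglia and 4.12 in neurons.

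Abcb1b, the other mouse gene for P-glycoprotein, was not an endothelial gene in these nuclei. It was 68.8 ± 35.7 CPM in microglia, from 24.8 to 149 with a median of 55.8, then 19.3 ± 3.83 in astrocytes, 12.7 ± 1.82 in neurons and 2.98 ± 5.56 in endothelium. Microglia were highest in 10 of 11 libraries, and the lowest microglial library, OTV:Malat1 replicate 4, lay within the astrocyte range. Its neighbour Abcb4, a phosphatidylcholine flippase known from bile, was 75.1 ± 28.6 CPM in microglia (41 to 135, median 71.1) and 20.2 ± 7.37 in astrocytes, without overlap. The 3 genes lie in a row on chromosome 5, with 49.6 kb between Abcb1a and Abcb1b and 27.3 kb between Abcb1b and Abcb4. Abcb1a and Abcb1b are close paralogs, and how reads common to both were counted is not given in the sources used here, so the split between them is uncertain.

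The promoters of these 3 neighbours are shown because the genes adjoin each other, while Abcb1a was highest in endothelium and both Abcb1b and Abcb4 in microglia. Sequences are RefSeq's for GRCm38.p6, 5′ to 3′ on the gene's strand, from 250 bases before to 50 after the transcript start of the table's single window for each gene. For Abcb4, and for Abca8a and Abca9 shown later, that start lies inside the gene's annotated span and other starts were not examined. Capitals mark GGGCGG (GC box), CCAAT and GAGGAA (a core of the sites of PU.1, a factor of the myeloid lineage) on either strand, and no matches overlap. Abcb1a lies at chr5:8566841-8567140, Abcb1b at chr5:8797897-8798196 and Abcb4 at chr5:8893471-8893770, all on the plus strand.
Abcb1a: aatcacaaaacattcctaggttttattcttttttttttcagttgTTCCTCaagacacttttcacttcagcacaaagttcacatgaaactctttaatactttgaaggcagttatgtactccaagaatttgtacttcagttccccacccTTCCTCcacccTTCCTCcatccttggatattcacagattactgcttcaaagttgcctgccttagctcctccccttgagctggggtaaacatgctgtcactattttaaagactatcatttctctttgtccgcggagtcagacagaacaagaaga
Abcb1b: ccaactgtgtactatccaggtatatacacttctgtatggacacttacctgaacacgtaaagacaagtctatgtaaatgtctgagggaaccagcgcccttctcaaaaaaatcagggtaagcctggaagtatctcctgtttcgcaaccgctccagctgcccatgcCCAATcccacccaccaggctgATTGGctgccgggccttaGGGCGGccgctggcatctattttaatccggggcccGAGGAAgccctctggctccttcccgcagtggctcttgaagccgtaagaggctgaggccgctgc
Abcb4: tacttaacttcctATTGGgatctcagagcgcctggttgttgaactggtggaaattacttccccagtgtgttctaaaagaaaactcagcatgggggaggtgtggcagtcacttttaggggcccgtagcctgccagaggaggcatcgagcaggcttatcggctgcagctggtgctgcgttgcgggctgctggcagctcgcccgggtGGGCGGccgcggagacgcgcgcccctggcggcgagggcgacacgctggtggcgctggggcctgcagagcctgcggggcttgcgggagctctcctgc
The Abcb1a window held no GGGCGG and no CCAAT but 3 matches to GAGGAA, all on the minus strand. Abcb1b held 1 GGGCGG, 2 CCAAT and 1 GAGGAA, and Abcb4 held 1 GGGCGG and 1 CCAAT. Of all 32851 RefSeq promoter windows, 35.7% held GGGCGG, 37.4% CCAAT and 28.3% GAGGAA. The 45 windows of the 38 ABC genes that matched held them in 46.7%, 35.6% and 40% of cases. A match describes the letters of the window only.

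Microglia were the highest class of 9 ABC genes. Abcc3, a pump of glucuronides and bile salts, had 80.9 to 186 CPM in microglia (median 115, mean 123 ± 34.6) and 3.48 ± 2.13 in oligodendrocytes, the next class, so that every microglial library lay above every library of the 8 other classes compared. The single perivascular macrophage library is not among those. In the control libraries microglial Abcc3 was 112, 80.9 and 93.2 CPM. Abca9, a lipid transporter of the Abca6 group, was 334 ± 72.4 CPM in microglia, 114 ± 36.7 in leptomeningeal cells and 2.4 in neurons. Abca1, which exports cholesterol to apolipoproteins, was 258 ± 88.6 CPM in microglia and 193 ± 18.1 in astrocytes, with overlapping ranges. Abcg3 had 27.7 ± 22 CPM in microglia. Abca13 rested on 11 microglial UMIs.

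Perivascular macrophages numbered 125 nuclei in all. Their summed counts gave Abca1 at 664 CPM (95% Poisson interval 535 to 814), Abca9 at 526 (413 to 662) and Abcg3 at 151 (93.8 to 232). Abcc3 was 115 CPM (66 to 187) on 16 UMIs, and no other ABC gene but Abcc5, at 166 CPM, had more than 20 UMIs in this class. The macrophages thus shared Abca9 and Abca1 with microglia, at levels that rest on few nuclei.

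The lipid and sterol exporters were divided among classes. Oligodendrocytes were the highest class of Abca2, Abca6, Abca8a, Abca8b and Abcg1. Abca2, a lysosomal lipid transporter known from myelin-forming cells, was 119 ± 15 CPM there and 27.2 in neurons. Abca8b was 109 ± 20.7 and Abca6 36.2 ± 9.9 CPM in oligodendrocytes, and both were highest there in each of 11 libraries. Abcg1, which passes cholesterol to lipoproteins, was 114 ± 17.1 CPM in oligodendrocytes and 62.6 ± 29.6 in microglia, the next class, with overlapping ranges. Abcg1 was 36.3 CPM in neurons and 15.1 in astrocytes, its lowest class. Its close relative Abcg4 was highest in neurons at 15.3 ± 0.67 CPM, with vascular smooth muscle next at 14.3 ± 16.5. Neurons were highest for Abcg4 in 5 of 11 libraries. Vascular smooth muscle became its highest class with nuclei of at least 1000 UMIs, and also when some single libraries were left out. Abca1 was 92.2 ± 6.83 CPM in oligodendrocytes and 16.5 ± 2.38 in neurons, its lowest class.

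Abca8a, a lipid exporter, was 96.8 ± 17.6 CPM in oligodendrocytes and 55.7 ± 35.5 in leptomeningeal cells. Its neighbour on chromosome 11, Abca9, is separated from it by 3.17 kb and was 334 CPM in microglia. Both promoters are shown because these neighbours were highest in different classes, with the same motifs in capitals. Abca8a lies at chr11:110095888-110096187 and Abca9 at chr11:110168104-110168403, both on the minus strand of GRCm38.p6.
Abca8a: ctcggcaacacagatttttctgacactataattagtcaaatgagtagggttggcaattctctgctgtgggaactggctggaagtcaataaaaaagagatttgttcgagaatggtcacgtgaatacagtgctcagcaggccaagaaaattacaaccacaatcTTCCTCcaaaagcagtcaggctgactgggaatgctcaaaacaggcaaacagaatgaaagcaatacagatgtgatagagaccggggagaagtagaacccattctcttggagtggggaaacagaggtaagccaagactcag
Abca9: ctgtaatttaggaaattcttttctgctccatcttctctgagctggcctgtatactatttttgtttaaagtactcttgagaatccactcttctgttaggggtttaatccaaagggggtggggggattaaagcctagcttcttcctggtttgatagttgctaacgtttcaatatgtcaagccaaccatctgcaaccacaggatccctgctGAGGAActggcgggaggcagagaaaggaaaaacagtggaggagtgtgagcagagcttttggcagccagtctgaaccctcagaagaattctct
Each of these windows held 1 match to GAGGAA and none to GGGCGG or CCAAT. Here too a match describes the letters of the window only.

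Neurons were the highest class of Abca5, Abca12, Abca17, Abcb5, Abcb9, Abcc8 and Abcg4. Neuronal levels were low for several of these: Abcb5 was 1.35 to 2.52 CPM (median 2.04), Abca12 2.79 ± 0.986 and Abca17 4.71 ± 0.271. Several ABC genes, not all of them highest in neurons, differed between the authors' neuronal clusters in opposite ways. Abcb5 was 5.28 ± 0.807 CPM in cluster 1, 3.46 ± 2.07 in cluster 9, 0.848 ± 0.384 in cluster 0 and 0.907 ± 0.565 in cluster 2. Abcc12, a member of the multidrug resistance group, was 3.64 ± 0.744 CPM in cluster 2 and 0.341 ± 0.132 in cluster 0, beside a mean of 1.12 over all neurons. Abca12, a lipid transporter known from skin, was 4.15 ± 1.39 CPM in cluster 0 and 0.25 ± 0.565 in cluster 9. Abcc8 was 33.6 ± 2.74 CPM in cluster 0 and 20.5 ± 2.22 in cluster 1. Abca8a, low in other neurons, reached 25.4 ± 4.54 CPM in cluster 9, against 3.68 ± 0.928 in cluster 0. Other genes highest in oligodendrocytes were also higher in cluster 9 than in cluster 0, Abca2 at 52.7 against 25.8 CPM, Abca6 at 9.85 against 3.36 and Abcg1 at 61.5 against 31. Nuclei called doublets were kept, and the part of oligodendrocyte RNA in these values was not tested. Clusters were made from the same counts, so these are descriptions.

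The glia class held the choroid plexus. Of its 1525 nuclei, 802 had more UMIs of choroid plexus markers than of ependymal markers, 685 had more ependymal UMIs and 38 had equal numbers, a division chosen after the data were seen. Ttr was left out of this division, so the choroid plexus markers used were Kl, Folr1, Otx2, Prlr and Slc4a5. Nuclei called doublets were 19.5% of the glia class and 10.4% of all nuclei, and were kept. The division was not repeated without them. Abca4, the flippase of retinal derivatives known from photoreceptors, was 336 CPM on the choroid plexus side (95% Poisson interval 314 to 358) and 15.2 (10.7 to 21) on the ependymal side. It was higher on the choroid plexus side in 11 of 11 libraries. Over the whole class Abca4 was 183 ± 39.2 CPM, with leptomeningeal cells next at 97.7 ± 24.3 and oligodendrocytes lowest at 0.703. Abcc1 was 105 CPM (93 to 118) on the choroid plexus side and 40.7 (33.1 to 49.6) on the ependymal side, also in 11 of 11 libraries. Abca7 and Abcg1 had the same direction in 11 of 11, with 24.1 against 2.47 and 36.7 against 16.9 CPM.

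Abcc5, a pump of cyclic nucleotides, was lower on the choroid plexus side in 11 of 11 libraries, at 112 CPM against 153. Abca1 was also lower there, with 103 CPM against 167, in 9 of 11 libraries. Abcc4 was 116 CPM (103 to 129) on the choroid plexus side and 89.7 (78.2 to 102) on the ependymal side, and was higher on the choroid plexus side in 9 of 11 libraries. Abcb1a and Abcg2 were low in the class as a whole, at 7.25 ± 7.63 and 17.8 ± 8.34 CPM.

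Leptomeningeal cells were the highest class of Abcd3, the peroxisomal transporter of branched fatty acids and bile acid precursors, at 154 ± 47.6 CPM, with astrocytes next at 108 ± 11.9. Within the class, 156 of 1861 nuclei had a UMI of Slc47a1, an organic cation exporter. These 8.38% of nuclei held 13.3% of the class' UMIs. They held 69% of its Abcc4 UMIs, 55.9% of its Abcb1a, 44.6% of its Abcg2 and 43.8% of its Abcd3 UMIs. Abcc4 was 667 CPM (587 to 755) in nuclei with Slc47a1 and 45.9 (37.8 to 55.3) in the 1705 without. Abcb1a was 354 (296 to 419) against 42.7 (34.9 to 51.7), Abcg2 442 (377 to 515) against 84.1 (73 to 96.4) and Abcd3 549 (477 to 630) against 108 (95.2 to 122).

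Of the endothelial markers, Cldn5 was 21.4 CPM in the leptomeningeal nuclei with Slc47a1 and 25.8 in those without, and Flt1 was 69.7 and 158. Leptomeningeal nuclei with no endothelial marker UMI had 92.6 CPM of Abcb1a (80.1 to 107), and those with such a UMI 57.5 (41.1 to 78.3). The part of endothelial RNA in these levels was not tested. Abca4 and Abca8a went the opposite way, at 13.4 against 112 CPM and 5.36 against 54.1. Abca9 and Abcc5 were similar in both sets, at 85.7 against 109 and 129 against 147 CPM with overlapping intervals. Nuclei with Slc47a1 were deeper, with a median of 1966 UMIs against 1125. Only the replicate 1 libraries of ATV:BACE1, nonTV:Malat1 and OTV:Malat1 had at least 20 such nuclei, and OTV:Malat1 replicate 5 had 0 of 114. In that library Abcb1a was at 0 UMIs in leptomeningeal cells.

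**Figure D3:**
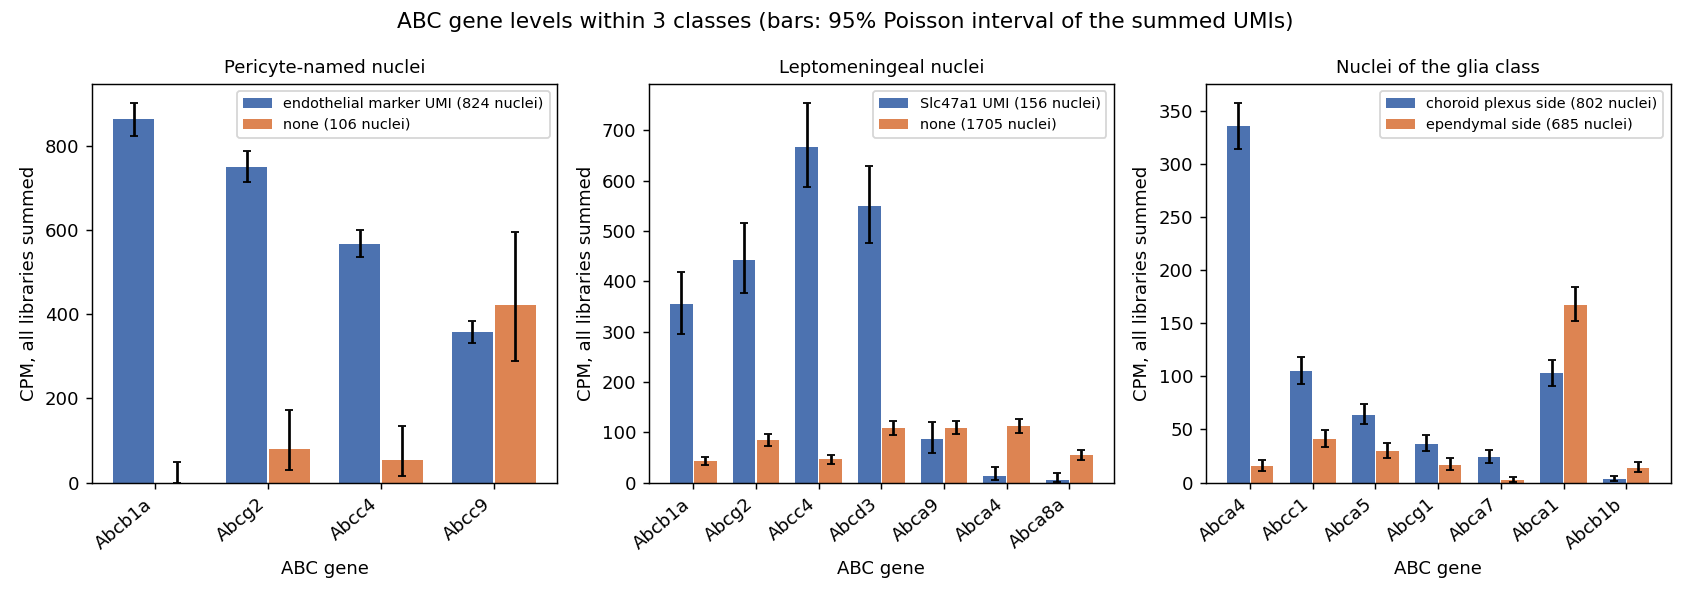
CPM of selected ABC genes with all libraries summed (y axes, linear from 0) in subsets of pericyte-named, leptomeningeal and glia nuclei; bars are the summed level and lines the 95% Poisson interval. Abcb1a has 0 UMIs in pericyte-named nuclei without endothelial UMIs, is 354 CPM in leptomeningeal nuclei with Slc47a1, and Abca4 is 336 CPM on the choroid plexus side of the glia class.

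Genes of organelles and the soluble ATPases had their highest levels in several classes. Abcd2, a peroxisomal fatty acid transporter, was 116 ± 10.1 CPM in astrocytes, 103 ± 29.1 in microglia and 6.93 in endothelium. Abcb8 and Abcb10, both of mitochondria, were highest in oligodendrocytes at 35.9 ± 6.49 and 38.5 ± 7.15 CPM, where Abcb10 did not differ from pericytes beyond the spread (31.9 ± 28.7). Abcd4, which takes part in lysosomal cobalamin export, was 29.9 ± 5.77 CPM in astrocytes and 27.7 ± 12.3 in leptomeningeal cells. Abcf1, which acts in translation initiation, was 93.9 ± 24.6 CPM in pericytes, 90.3 ± 32.5 in endothelium and 33.2 in neurons. Abce1, which recycles ribosomes, was highest in vascular smooth muscle at 68.6 ± 51.7 CPM, on 27 UMIs. Abcc5 was 206 ± 20.6 CPM in oligodendrocytes, 194 ± 35.2 in microglia and 181 in neurons.

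Genes that work beside the ABC pumps were read from the same nuclei. Of 11 barrier carriers, 9 were highest in endothelium, for example the organic anion carrier Slco1a4 at 2933 CPM with pericytes at 2200. Slco2b1 was the exception in microglia at 687 CPM, and Slc22a8 was 289 CPM in pericytes and 277 in leptomeningeal cells. Of the sterol partners of Abca1, Apoe was highest in astrocytes at 2559 CPM. Cftr, an ABC family gene under another symbol, was 28.9 CPM in leptomeningeal cells and 7.91 in neurons.

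The dosing groups were compared in 5 contrasts with edgeR's quasi-likelihood test on counts summed per library, adjusted over all genes by the Benjamini-Hochberg method. Over all nuclei, where fewer cells of a type and less RNA per cell cannot be told apart, 45 of the 50 ABC genes passed the filter on low counts and were tested, and 0 passed an adjusted p of 0.05 in any contrast. Of all 21409 genes tested, 0 passed as well in each of the 5 contrasts, a background of 0%. At an unadjusted p under 0.05 the count was 4 of 225 ABC gene tests with edgeR and 2 with DESeq2, which also called 0 of them. Of all gene tests in these contrasts, 0.958% had such a p with edgeR and 0.687% with DESeq2. With edgeR at that unadjusted p, OTV:Malat1 against ATV:BACE1 gave 1 of 45 ABC genes beside 0.752% of all genes. It was 1 of 45 beside 0.901% for nonTV:Malat1 and 1 of 45 beside 1.75% for the free ASO, both against the same control. DESeq2 called 0.00467% of all genes for OTV:Malat1 against the control and also against nonTV:Malat1. It called 0.00934% for OTV:Malat1 against the free ASO, 0.00934% for the free ASO against the control and 0% for nonTV:Malat1. The fit with the replicate number as a block called 0 ABC genes, beside 0.0187% of all genes for the free ASO and 0% in the other contrasts. Malat1 itself had a log2 change of -0.79 for OTV:Malat1 against ATV:BACE1, with an edgeR adjusted p of 1.00, and DESeq2 gave 3.87e-09. For that contrast the median log2 change of the ABC genes was -0.0069 and that of all genes 0.0068.

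Within the deposited classes 867 tests of ABC genes were made in 42 fits of class and contrast. With edgeR 0 passed, 14 had an unadjusted p under 0.05, and DESeq2 called 0, with 3 under 0.05. Of all gene tests in these classes and contrasts, 2.12% had an unadjusted p under 0.05 with edgeR and 0.801% with DESeq2. Over the same classes edgeR called 0.00513% of all gene tests where OTV:Malat1 was set against the control. The share was 0.00252% where it was set against nonTV:Malat1 and 0.00378% where it was set against the free ASO. It was 0% when either of the latter was set against the control. With DESeq2 the shares in the same order were 0.00770%, 0.00503% and 0.00503%, then 0% for nonTV:Malat1 and 0.00128% for the free ASO. With the replicate number as a block they were 0.0128%, 0.0239% and 0.0176%, then 0.0257% and 0.0488%, and 0 ABC genes were called by either fit. Low counts limited what was tested: 9 ABC genes entered the fit in endothelium, 8 in microglia and 1, in 2 of the contrasts, in vascular smooth muscle.

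In OTV:Malat1 replicates 1, 4 and 5 the endothelial level of Abcb1a was 992, 1341 and 1010 CPM. The nonTV:Malat1 libraries had 1115, 1142 and 1001 CPM. It was 1308 and 878 CPM in Malat1 ASO replicates 1 and 5, so all groups overlapped. The log2 change for OTV:Malat1 against ATV:BACE1 was 0.029 ± 0.229 (SE, edgeR adjusted p = 0.999), with a 95% interval from -0.44 to 0.50. An exact two-sided permutation test over the 3 and 3 libraries gave p = 0.6, where the smallest possible is 0.1. Neither this test nor the edgeR fit behind these intervals took account of the pairing of libraries by replicate number. Endothelial Abcg2 was 751, 716 and 655 CPM in the control libraries and 855, 722 and 757 with OTV:Malat1. With nonTV:Malat1 it was 885, 1169 and 535 CPM. In the free ASO libraries it was 1308 and 732 CPM. The interval of its log2 change for OTV:Malat1 against ATV:BACE1 ran from -0.45 to 0.60 (0.07, edgeR adjusted p = 0.999). These intervals leave room for changes of either sign.

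The 3 ABC genes with the smallest p over all nuclei for OTV:Malat1 against ATV:BACE1 were Abcc3, Abcc10 and Abca9. Abcc3 was 2.30, 1.68 and 1.84 CPM in the OTV:Malat1 libraries and 1.13, 1.14 and 1.41 in the control, without overlap. Its log2 change was 0.62 ± 0.193 (SE, 95% interval 0.20 to 1.05, edgeR adjusted p = 1.00). The exact two-sided permutation test gave p = 0.1, the smallest it can give with 3 libraries against 3. Abcc3 was named for its small p in these same libraries, so the lack of overlap and this p add no support. The share of all genes without such overlap was not computed. Fit and permutation test again left out the pairing by replicate number. The nonTV:Malat1 libraries had 1.66, 1.62 and 2.02 CPM, a log2 change of 0.51, and the Malat1 ASO libraries 1.68 and 1.77, a change of 0.49. These 3 contrasts share the control libraries. In microglia, where Abcc3 is highest, the log2 change for OTV:Malat1 was 0.42 with an interval from -0.31 to 1.15. Abcc10, a multidrug resistance pump, had -0.23 (-0.54 to 0.075) and Abca9 0.28 (-0.16 to 0.72) over all nuclei, both with an edgeR adjusted p of 1.00.

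**Figure D4:**
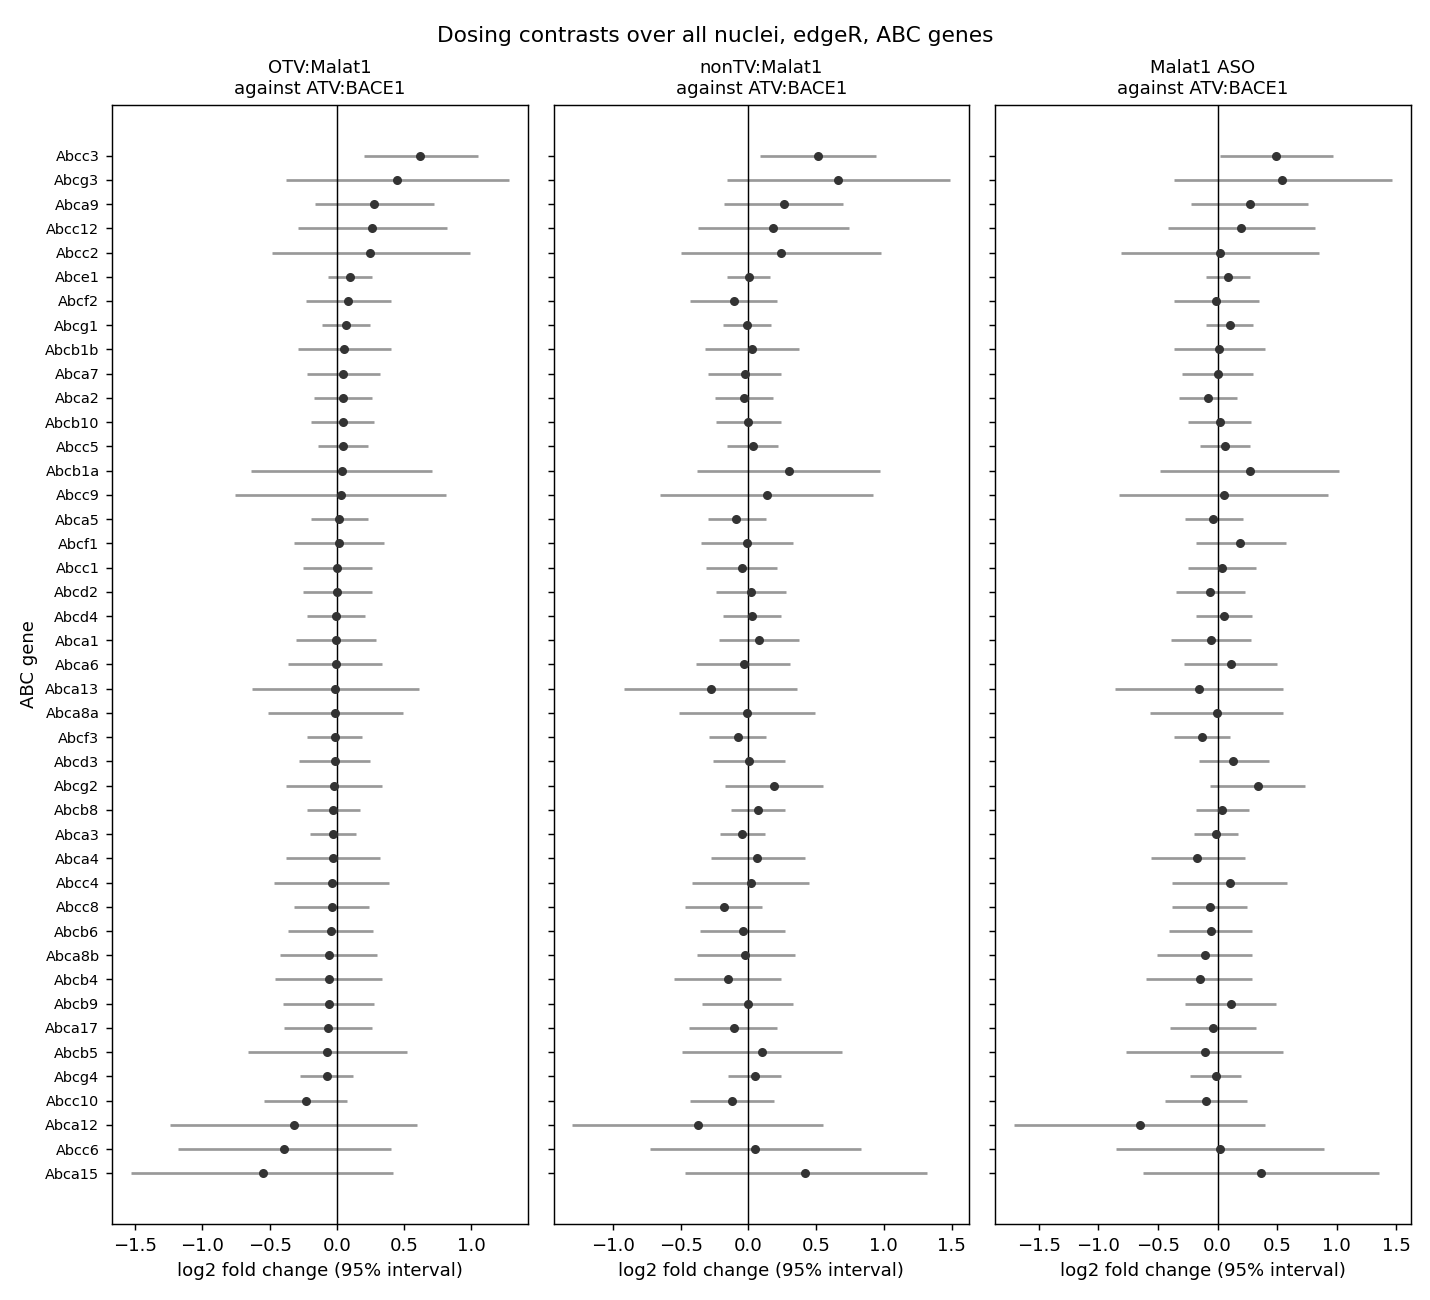
Log2 fold change with 95% interval from edgeR (x axes) for the tested ABC genes described here (y axis, ordered by the first panel) over all nuclei in 3 dosing groups against ATV:BACE1. Abcc3 is the top point in the first panel at 0.62, and none of the genes passed an adjusted p of 0.05.

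Replicate number, which is also the batch, was tested with edgeR on the same summed counts. Each adjusted p is from an F test over replicates 1, 4 and 5 together. Single pairs of replicates were not tested, so the log2 differences between pairs are descriptions. Over all nuclei 18 of 45 ABC genes (40%) differed by replicate number, beside 47.0% of all 21409 genes, so the count is not particular to the family. Of these 18, 8 were higher and 6 lower in both replicates 4 and 5 than in replicate 1, and 4 were mixed. Of the 5 with the smallest adjusted p, 4 are described: Abca8b, Abcf1, Abca8a and Abca12. Abca8b was 41.3 to 44.3 CPM in replicate 1 and 52.6 to 57.5 in replicate 4, a log2 difference of 0.44 (edgeR adjusted p = 0.00178).

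Abcf1 was 37.3 to 40.9 CPM in replicate 1 and 26.8 to 30.7 in replicate 4, by -0.40 on the log2 scale (edgeR adjusted p = 0.00228). Abca8a was highest in replicate 4, at 10.10 to 10.70 CPM, and lowest in replicate 5, at 6.74 to 7.83 (edgeR adjusted p = 0.00313). Abca12 was 1.19 to 1.73 CPM in replicate 1 and 2.11 to 4.09 in replicate 5, without overlap, a log2 difference of 1.03 (edgeR adjusted p = 0.00374). For Abca8b and Abcf1 the pairs of replicates named did not overlap. Abca8b, Abcf1 and Abca12 were named for their small p in these same libraries, so the lack of overlap adds no support. The share of all genes without overlap between replicates was not computed. The share of UMIs from neurons was 82.2% to 86.1% in replicate 1, 86.4% to 89% in replicate 4 and 89.3% to 93% in replicate 5, and its part in these differences was not tested. Within neurons alone 16 of 45 ABC genes passed (35.6%), beside 48.4% of all genes there.

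**Figure D5:**
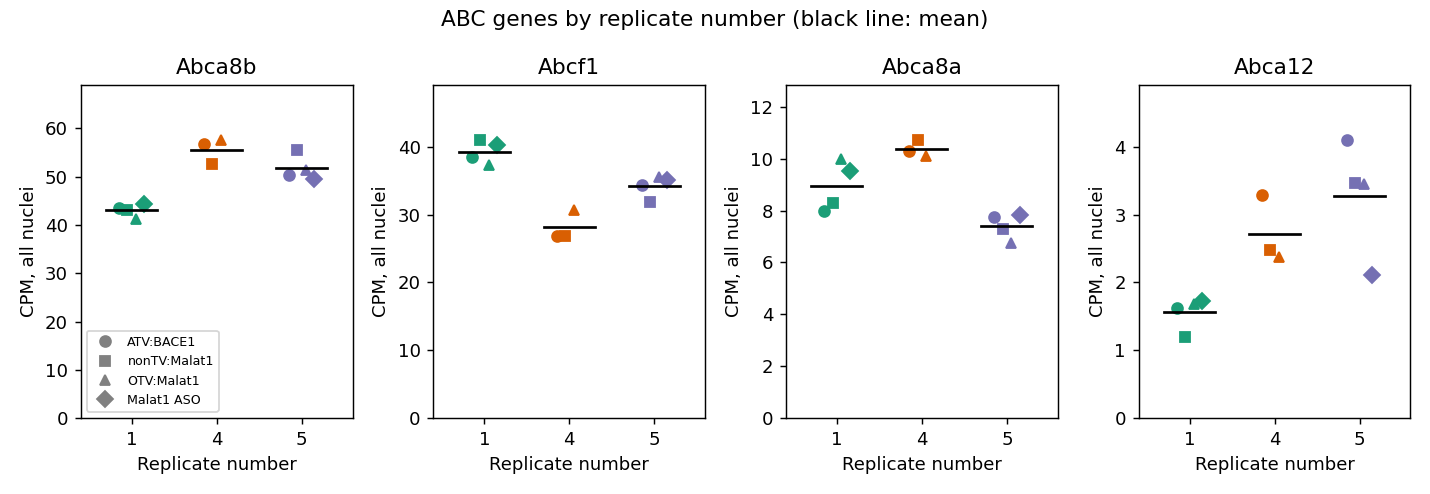
CPM over all nuclei (y axes, linear from 0) of 4 of the ABC genes with the smallest adjusted p, by replicate number (x axes); symbols are dosing groups and black lines are means. Abca8b and Abca12 are lowest in replicate 1, and Abcf1 is lowest in replicate 4.

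Class by class, an addition made after the data were seen, 7 of 31 ABC genes passed in oligodendrocytes (17.9% of all genes), 4 of 33 in astrocytes (19.5%) and 4 of 15 in leptomeningeal cells (5.36%). In microglia, glia, pericytes, endothelium and vascular smooth muscle 0 passed with edgeR, beside 6.97%, 2.04%, 0.824%, 1.08% and 0.194% of genes. The 4 leptomeningeal genes were Abca8a, Abcb1a, Abcc4 and Abca9. Here too each adjusted p is from the F test over all replicate numbers and not from the pair named. Abca8a was 12.1 to 38.3 CPM in the leptomeningeal cells of replicate 1 and 49.9 to 109 in replicate 4, a log2 difference of 2.22 (edgeR adjusted p = 8.94e-05). Abcb1a was 68.2 to 138 CPM in replicate 1 and 0 to 82.8 in replicate 5, with overlap, and fell by 1.28 on the log2 scale (edgeR adjusted p = 0.011). Abcc4 fell by 0.93 between the same replicates (edgeR adjusted p = 0.0253). The share of leptomeningeal nuclei with a Slc47a1 UMI was 9.69% to 13.9% in replicate 1, 5.63% to 9.85% in replicate 4 and 0% to 5.71% in replicate 5, and its part in these differences was not tested. In oligodendrocytes Abca9 was higher in replicate 5 by 1.72 (edgeR adjusted p = 0.00814) and Abca6 in replicate 4 by 0.75 (edgeR adjusted p = 0.0018).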

How the data were processed

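Droplet single-nucleus RNA counts of 11 libraries were used. The deposited matrix holds UMI counts (whole numbers, not normalized), per the file headers a sparse table. The deposited metadata give each nucleus' total count, the percent of mitochondrial UMIs, a prediction score as a fraction from 0 to 1, a doublet score as a fraction, and a class, cluster, batch and doublet call. Per the submitters' processing notes the build was mm10 and the tools Cell Ranger 5.0.0 and Seurat 4. How the authors filtered nuclei is not given in the sources used here. Their lowest deposited total was 499 UMIs. Nuclei called doublets (10.4%) were kept. Libraries held 33235994 to 43972886 UMIs.

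Counts were summed per library and class (at least 20 nuclei) and divided by the class total to give CPM. Dosing was tested with edgeR 4.0.16 (R 4.3.3; TMM, filterByExpr, quasi-likelihood, all groups in 1 fit, Benjamini-Hochberg over all genes of a fit, threshold 0.05), with DESeq2 1.42.0 as an alternative. The functions were tested on simulated data with known changes. The simulation held no difference between replicate numbers, so it does not show how the tests perform on these libraries. Other alternatives were total counts without TMM, Malat1 left out, no filter on low counts, a replicate block, no called doublets, stricter nuclei, and each library left out in turn. Replicate number was tested as an F test with group in the fit.

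The replicate numbers pair the libraries: each number is 1 deposited batch, and same-numbered libraries of different groups correlated with r from 0.344 to 0.71 over 21307 genes (15 pairs, group means removed).

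The rule for named genes placed a gene with at least 100 UMIs in the class of highest mean CPM. It named Abcb1a and Abcg2 always, genes at least 3 times above the next class, the 3 smallest p in the OTV:Malat1 contrast and the 5 smallest adjusted p for replicate number. Other ABC genes are named to describe their role group or were chosen after their values were seen. Results for 2 of the ABC genes are not reported here, though they stay in the counts. The members and lists were chosen with earlier results of these data known. RefSeq promoter windows (GRCm38.p6) matched 38 of 50 genes by symbol.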

Additional observations from a re-analysis of the deposited data

How the results depend on the processing

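No ABC gene was called for dosing under any of the alternatives run, over all nuclei or within classes: 175 of 175 counts over the 5 contrasts stayed at 0. That includes the replicate block (paired fit), which gave 0 in each contrast. These zeros say little about stability, since edgeR called 0 of 21409 genes over all nuclei and gave Malat1 itself an adjusted p of 1.00. Counts for replicate number ranged from 12 to 20 when each library was left out (12 without nonTV:Malat1 replicate 1), and were 18 with no filter and 16 without TMM.

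The class counts moved with the nuclei used. Perivascular macrophages, highest for 10 genes on 1 library, held 0 with a prediction score of at least 0.8, with at least 1000 UMIs, or with classes of at least 2 libraries, and microglia then held 9 under each. Vascular smooth muscle held 0 at that score and 5 with at least 1000 UMIs. Pericytes held 4 with at least 1000 UMIs and 0 with counts pooled. Leptomeningeal cells held 2 without doublets and 2 at that score. With each library left out, counts ranged from 0 to 11 for perivascular macrophages (0 without OTV:Malat1 replicate 1, 11 without ATV:BACE1 replicate 4 or OTV:Malat1 replicate 4), 3 to 9 for microglia (9 without OTV:Malat1 replicate 1), 2 to 4 for vascular smooth muscle (4 without nonTV:Malat1 replicate 4 or 5), 1 to 2 for pericytes (1 without ATV:BACE1 replicate 4) and 1 to 2 for leptomeningeal cells. Abcb1a, Abcg2, Abcc4 and Abcc6 were highest in endothelium under every alternative. Abcc9 moved from vascular smooth muscle to pericytes at the stricter score.

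Some uncalled log2 changes turned sign. Without called doublets, Abcb1a was -0.079 over all nuclei and -0.00033 in endothelium for OTV:Malat1, and -0.0036 in endothelium for Malat1 ASO; without TMM, Abcg2 over all nuclei was 0.021 for OTV:Malat1.
With each library left out, Abcb1a over all nuclei ranged from -0.28 to 0.28 for OTV:Malat1 and from -0.16 to 0.6 for Malat1 ASO. In endothelium it ranged from -0.13 to 0.25 for OTV:Malat1, -0.1 to 0.27 for nonTV:Malat1 and -0.26 to 0.3 for Malat1 ASO. Abcg2 ranged from -0.075 to 0.05 for OTV:Malat1 and -0.0081 to 0.62 for Malat1 ASO over all nuclei, and from -0.005 to 0.12 for OTV:Malat1 and -0.0074 to 0.48 for nonTV:Malat1 in endothelium. The cause of these turns was not tested.
Intervals were wider in endothelium than over all nuclei. For OTV:Malat1 against ATV:BACE1 the median 95% interval of an ABC gene reached 0.85 either side on the log2 scale in endothelium. Over all nuclei it reached 0.34. These medians cover 9 ABC genes in endothelium and 45 over all nuclei, and the part of depth in the difference was not tested.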
